A study of Mus musculus with 2 samples.

Results

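The mammalian circadian clock was examined in single liver cells through 10 genes, Arntl, Clock, Per1, Per2, Per3, Cry1, Nr1d1, Nr1d2, Dbp and Tef, chosen by gene symbol. Each of the 10 symbols matched 1 row of the 32285 genes listed in both count matrices. The question was whether any of these genes differed in level between livers with and without hepatocyte NgBR, and whether such a shift was shared by all cell classes.

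Cells freed from perfused livers with collagenase were profiled with 3′-end droplet sequencing that counts unique molecular identifiers (UMIs), with 1 library for each of the WT and N-LKO groups. The mice were male. In N-LKO mice, albumin-Cre, which is driven by a promoter active in hepatocytes, had deleted loxP-flanked alleles of Nus1, the gene of NgBR, a subunit of an enzyme of dolichol synthesis, whereas the WT library carries the genotype label CTRL. Mice of both groups had received the Western diet for 16 weeks (the sample titles call it HFD, the treatment labels WD). The WT library mixed hepatocytes with nonparenchymal cells of liver, and the N-LKO library, from tissue labelled as liver plus tumor, also held tumor cells, so that genotype, tumor tissue and library cannot be told apart. The number of mice behind each library and the hour at which they were killed are not given in the sources used here. Since clock transcripts cycle over the day, a difference in hour between the collections cannot be told apart from a difference in genotype.

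In the clock, the transcription factors BMAL1 (encoded by Arntl) and CLOCK pair up on E-box sequences and switch on the genes of their own repressors, the period and cryptochrome proteins, which accumulate over the day and then shut the pair down. The same pair drives Nr1d1 and Nr1d2, whose nuclear receptor products REV-ERBα and REV-ERBβ repress Arntl at elements that the ROR receptors activate, and drives the PAR bZIP factor gene Dbp, which with Tef and Hlf acts on D-box sequences. In liver this loop times the synthesis of bile acids, lipids, glucose and detoxifying enzymes, and the transcripts of the activators and of the E-box targets peak at different parts of the day.

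Regulatory sequence of the loop could be read near the starts of 9 of the 10 genes, in 14 RefSeq promoter windows on GRCm38.p6 that reach from 250 bases before to 50 bases after each annotated start. The stretches shown hold the E-box CACGTG, through which BMAL1 and CLOCK act, or the D-box TTATGTAA, through which the PAR bZIP factors act, in capitals, and are written 5′ to 3′ along the gene's own strand. They are given as the sequence context of the genes whose UMIs are reported beneath them. All motifs were searched on both strands.
Per1 E-box (chr11:69098763-69098808, + strand): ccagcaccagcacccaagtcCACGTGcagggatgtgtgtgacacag
Cry1 E-box (chr10:85185089-85185134, - strand): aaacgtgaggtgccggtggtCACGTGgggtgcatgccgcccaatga
Tef E-box at its first start (chr15:81802526-81802571, + strand): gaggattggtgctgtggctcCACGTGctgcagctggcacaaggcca
Tef E-box at its other start (chr15:81811256-81811301, + strand): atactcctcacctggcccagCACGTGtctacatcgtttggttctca
Per3 D-boxes (chr4:151044796-151044890, - strand): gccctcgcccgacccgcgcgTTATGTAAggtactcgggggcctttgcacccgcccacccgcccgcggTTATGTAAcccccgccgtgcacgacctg

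The E-box began 166 bases before the annotated start of Per1 and 60 bases before that of Cry1, and the D-boxes of Per3 began 205 and 158 bases before its start. CACGTG was present in 7.15% of all 32851 promoter windows, and TTATGTAA or the other D-box letters searched, TTACGTAA, in 1.06%. The REV-ERB and ROR element was searched as TAGGTCA or TGGGTCA, which 6.45% of all windows held, and 1 match lay in a window of Arntl. The windows of Clock, Nr1d1, Nr1d2 and Dbp held none of these letters, which says only that they are not in these windows.

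The files held 100171 barcodes with 85522287 UMIs in the WT library and 90147 barcodes with 87575064 UMIs in the N-LKO library, and 2499 barcodes were found in both. After filtering, 18430 WT cells (median 1400 UMIs) and 19854 N-LKO cells (median 1455 UMIs) were clustered without the clock genes, and 9 classes with at least 200 cells in each library were named from marker genes. They were hepatocyte-like (9924 WT and 2104 N-LKO cells), macrophage-like (2443 and 5441), endothelial-like (1862 and 1953), T-like (1185 and 1930, with natural killer markers as well as T cell markers), hepatic stellate-like (906 and 640), B-like (321 and 786), plasmacytoid dendritic-like (227 and 502), dendritic-like (215 and 488) and cholangiocyte-like cells (201 and 505). The UMIs behind a class ranged from 312902 in WT cholangiocyte-like cells to 16747227 in WT hepatocyte-like cells. Hepatocyte RNA was also counted outside hepatocyte-like cells: the 10 hepatocyte markers summed to 56387 CPM (UMIs scaled to 1e+06 per class) in WT hepatocyte-like cells and still reached 23026 CPM in another WT class, with 59962 and 12693 CPM in the N-LKO library. The profile of the 18526 WT and 13674 N-LKO barcodes under 500 UMIs was taken as that of free RNA. The deposited barcodes start at 326 and 377 UMIs, and whether these hold small or damaged cells as well was not tested. On that basis free RNA was estimated to supply 85.3% of the UMIs of hepatocyte-like cells in WT and 37.8% in N-LKO, and 27.7% to 52.4% in the other classes. Nus1 was counted at 73.1 CPM in WT against 39.1 CPM in N-LKO hepatocyte-like cells, a log2 ratio of -0.90 (95% interval -1.14 to -0.68), but the deleted exon lies at the other end of the gene from the counted 3′ end, so these tags do not check the deletion.

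All levels below are UMIs of a gene summed over the cells of a class and divided by all UMIs of that class and library. Ratios are log2 of the N-LKO over the WT level, with 0.5 UMI added to each sum. Every interval is a 95% interval for counting error alone, because 1 library per group leaves no replicate spread and no test across mice. A gene was compared where either library reached 5 CPM or more, and it was called higher or lower when its log2 ratio was at least 1 in size and its interval left out 0. Differences in ratio between hepatocyte-like cells and another class are printed only where their interval left out 0. That was so for 18 of the 77 clock gene differences that could be formed (23.4%), and the share over all genes was not computed. Differences picked in this way add no support for a contrast between classes.

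In hepatocyte-like cells 1 of 9 compared clock genes was called higher, Dbp, beside 5.44% of all 9940 genes compared, and 1 was called lower, Cry1, beside 3.25%. Endothelial-like cells had Per1 called higher (background 7.78%) and Cry1 called lower (7.11%) among 9 compared. None of 7 was called in macrophage-like cells, where 4.10% of all genes were called higher and 5.97% lower. Nr1d2 was the 1 gene of 7 called higher in T-like cells (10.4%) and in hepatic stellate-like cells (7.53%), and none was called lower there (7.21% and 6.15%). In B-like cells none of 8 was called (6.11% higher and 6.61% lower over all genes). In plasmacytoid dendritic-like cells none of 8 was called higher (4.26%) and Nr1d1 was called lower (5.32%). In dendritic-like cells none of 9 was called higher (3.75%) and Per2 was called lower (4.31%). Cholangiocyte-like cells, in which all 10 were compared, had Nr1d1 and Nr1d2 called higher (4.40%) and none lower (4.53%). The counts sum to 6 calls of higher and 4 of lower level, and in each class they were 0, 1 or 2 genes.

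An interval that leaves out 0, whatever the size of the ratio, was common over all genes in the large classes, and the clock genes are to be read against that share. It was found for 6 of 9 clock genes in hepatocyte-like cells beside 46.4% of all genes compared, 1 of 7 in macrophage-like cells beside 43.2%, 4 of 9 in endothelial-like cells beside 39.2%, 2 of 7 in T-like cells beside 42.1% and 1 of 7 in hepatic stellate-like cells beside 33.6%. In the small classes it was found for 1 of 8 in B-like cells beside 22.2%, 1 of 8 in plasmacytoid dendritic-like cells beside 15.1%, 1 of 9 in dendritic-like cells beside 14.2% and 2 of 10 in cholangiocyte-like cells beside 15.4%.

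**Figure D1:**
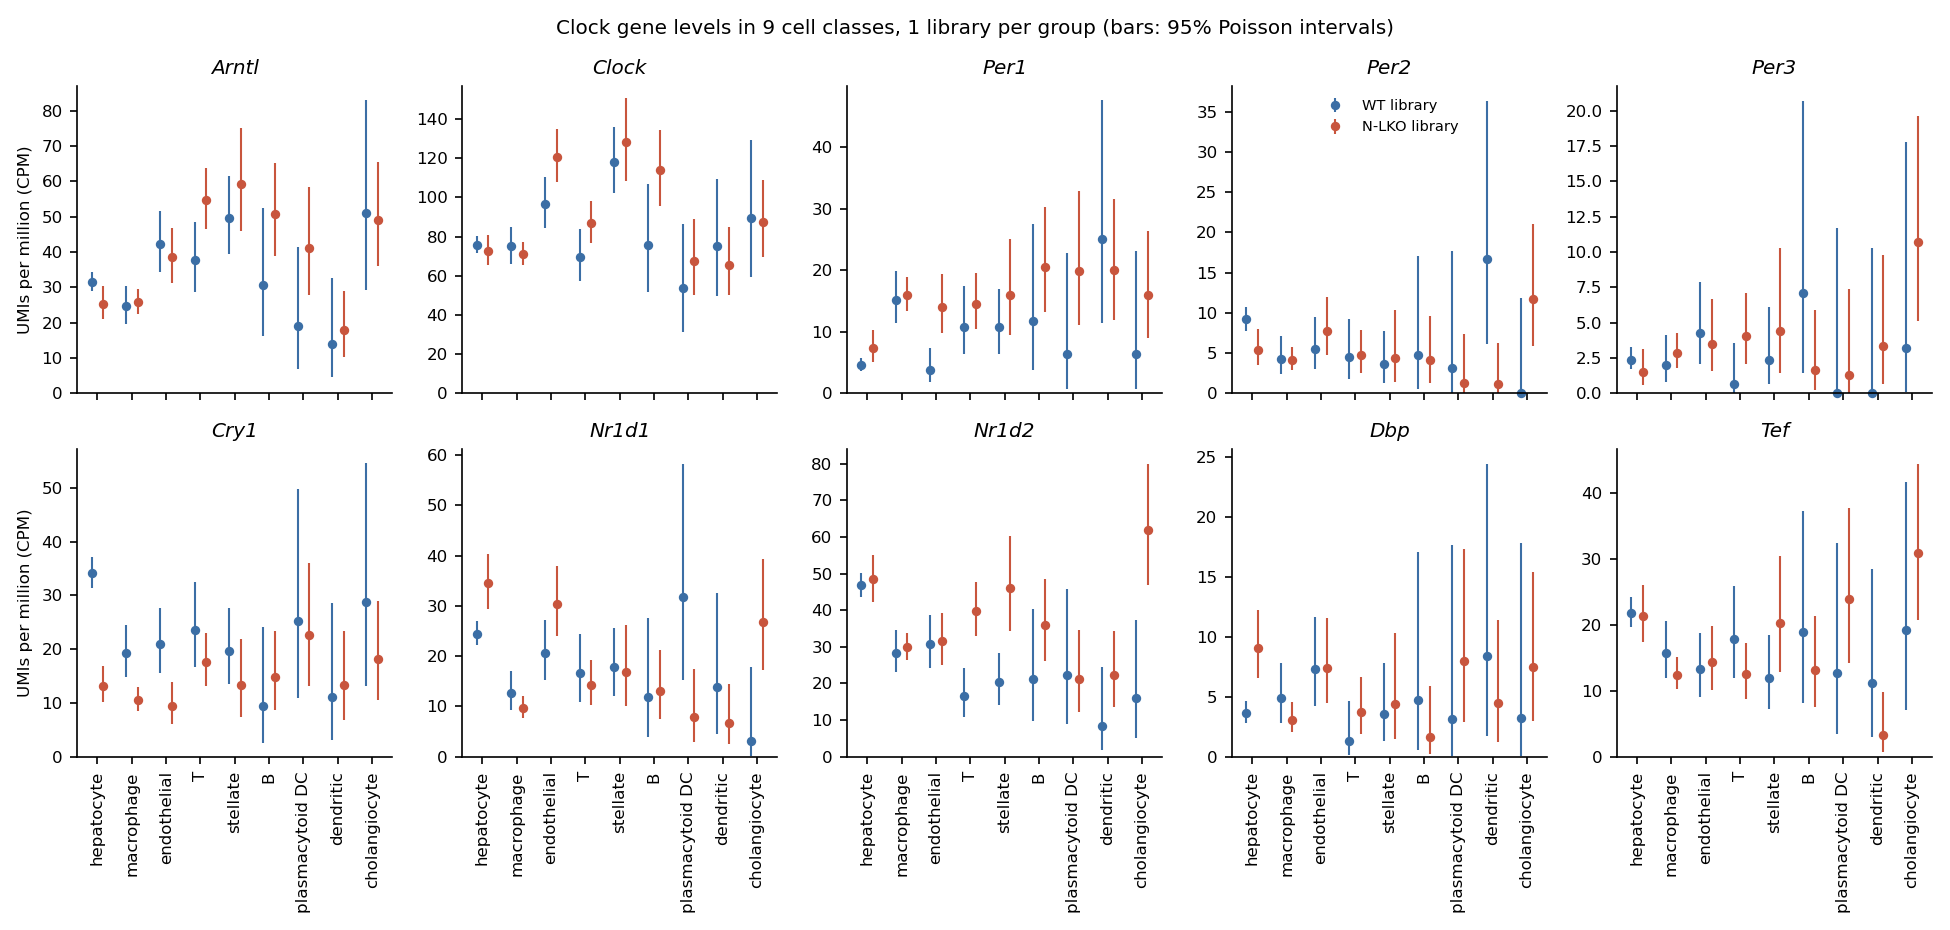
Level of each clock gene (CPM of the class, linear axis from 0) in 9 cell classes, with points for the WT and the N-LKO library and bars for 95% Poisson intervals of the counts. Cry1 in hepatocyte-like cells stood at 34.2 CPM in WT against 13.2 CPM in N-LKO with intervals apart, while in the small dendritic, B and cholangiocyte classes the intervals of most genes overlap.

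Arntl, which encodes the BMAL1 partner of the activator pair (106.662 kb on chromosome 7 in the GENCODE annotation of GRCm38), was counted with 528 UMIs in WT hepatocyte-like cells, or 31.5 CPM (28.9 to 34.3), and with 117 in N-LKO, or 25.3 CPM (20.9 to 30.3), a log2 ratio of -0.31 (-0.62 to -0.03). In the other WT classes its level was 51.1 CPM in cholangiocyte-like, 49.5 in hepatic stellate-like, 42.4 in endothelial-like, 37.7 in T-like, 30.7 in B-like, 24.7 in macrophage-like, 19.0 in plasmacytoid dendritic-like and 13.9 in dendritic-like cells. The N-LKO order was led by hepatic stellate-like cells at 59.2 CPM, then T-like at 54.6, B-like at 50.8, cholangiocyte-like at 49.1, plasmacytoid dendritic-like at 41.1, endothelial-like at 38.5, macrophage-like at 25.9 and dendritic-like at 17.8. T-like cells lay opposite to hepatocyte-like cells, with a ratio of 0.53 (0.10 to 0.99). The ratio of hepatocyte-like minus T-like cells was -0.84 (-1.36 to -0.32), that of hepatocyte-like minus hepatic stellate-like cells was -0.57 (-1.12 to -0.03), and the intervals against B-like and plasmacytoid dendritic-like cells lay below 0 as well.

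The direction of Arntl in hepatocyte-like cells rested on which cells were counted. When cells from 500 UMIs were admitted the ratio was 0.24 (0.01 to 0.45). It was -1.10 (-1.49 to -0.75), past the limit for a call, with free RNA subtracted, and 1.18 (1.02 to 1.35) when a Malat1-rich N-LKO cluster, described further on, was counted as hepatocyte-like.

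Clock, the partner of BMAL1, had the most UMIs of the 10 genes. It stood at 75.8 CPM (71.7 to 80.1) in WT against 72.8 CPM (65.2 to 81.0) in N-LKO hepatocyte-like cells, and at 74.9 and 71.1 CPM in macrophage-like cells, with ratios of -0.06 (-0.24 to 0.12) and -0.08 (-0.29 to 0.14). Its highest level lay in hepatic stellate-like cells of both libraries, at 118 CPM in WT against 128 CPM in N-LKO. The next level was that of endothelial-like cells, 96.7 CPM in WT against 121 CPM in N-LKO, a ratio of 0.32 (0.07 to 0.57). The levels in T-like cells were 69.6 and 87.0 CPM, in B-like cells 75.6 and 114, in plasmacytoid dendritic-like cells 53.8 and 67.7, in dendritic-like cells 75.2 and 65.6, and in cholangiocyte-like cells 89.5 and 87.5 CPM. Among these only the B-like ratio of 0.58 (0.03 to 1.19) had an interval leaving out 0. With at most 10% mitochondrial UMIs, which left 675 of 9924 hepatocyte-like cells in WT with 221 of 2104 in N-LKO, the hepatocyte-like ratio of Clock was -0.96 (-1.59 to -0.41). It was -0.78 with free RNA subtracted, 0.64 (0.52 to 0.76) with the Malat1-rich N-LKO cluster counted in and 0.46 (0.37 to 0.55) with classes assigned from marker UMIs per cell, so that its direction rested on the cells counted.

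Cry1 encodes the cryptochrome that holds the activator pair silent late in the cycle, and it carries both E-box and REV-ERB/ROR input. Its 572 UMIs in WT hepatocyte-like cells gave 34.2 CPM (31.4 to 37.1), and its 61 UMIs in N-LKO gave 13.2 CPM (10.1 to 16.9). The endothelial-like values, 21.0 CPM (49 UMIs) in WT against 9.34 CPM (24 UMIs) in N-LKO, and the macrophage-like values, 19.2 CPM (67 UMIs) and 10.6 CPM (89 UMIs), also had intervals apart. The ratios were -1.36 (-1.78 to -0.99), -1.15 (-1.94 to -0.43) and -0.87 (-1.34 to -0.39). In these 3 classes 39.2% to 46.4% of all genes compared had an interval on one side of 0.

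In the other classes the UMIs of Cry1 were fewer. T-like cells had 23.6 CPM in WT against 17.5 in N-LKO, hepatic stellate-like cells 19.7 and 13.3, cholangiocyte-like cells 28.8 and 18.1, and plasmacytoid dendritic-like cells 25.3 and 22.6, with ratios from -0.70 to -0.21 whose intervals all held 0. B-like cells, with 9.45 and 14.8 CPM, and dendritic-like cells, with 11.1 and 13.3 CPM, lay on the other side at 0.51 (-0.96 to 2.67) and 0.15 (-1.46 to 2.35). The value was lower in N-LKO in 7 of 9 classes. Hepatocyte-like minus T-like gave -0.93 (-1.64 to -0.21). Barcodes under 500 UMIs moved with it: Cry1 was 20.6 CPM there in WT against 11.0 CPM in N-LKO, a ratio of -0.90 (-1.34 to -0.49), and its part in the cell classes was not tested. With that profile subtracted the hepatocyte-like ratio was -2.21. The hepatocyte-like call was lost with classes assigned from marker UMIs per cell (-0.87) and with the Malat1-rich N-LKO cluster counted in (-0.97), and the endothelial-like call was lost with cells from 500 UMIs admitted (-0.63), with at least 2000 UMIs per cell (-1.29, -5.07 to 2.50) and with at most 10% mitochondrial UMIs (-0.47).

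The Period genes encode the partners of the cryptochromes in the repressor complex, and they were counted sparsely. Per1 stood at 4.54 CPM (3.58 to 5.68) in WT against 7.35 CPM (5.09 to 10.3) in N-LKO hepatocyte-like cells, from 76 and 34 UMIs, a ratio of 0.71 (0.07 to 1.30). In endothelial-like cells 9 UMIs gave 3.85 CPM (1.76 to 7.31) in WT, while 36 UMIs gave 14.0 CPM (9.81 to 19.4) in N-LKO. These intervals did not overlap, and the ratio of 1.80 (0.78 to 3.10) was the one call of Per1. Macrophage-like cells were level at 15.2 and 16.0 CPM, a ratio of 0.07 (-0.39 to 0.56), and the values in T-like (10.9 and 14.5 CPM), hepatic stellate-like (10.7 and 15.9), B-like (11.8 and 20.5), plasmacytoid dendritic-like (6.33 and 19.9) and cholangiocyte-like cells (6.39 and 16.0) were all higher in N-LKO with intervals that held 0. Dendritic-like cells, with 9 and 18 UMIs, were the exception among the 9 point values at -0.36 (-1.55 to 1.01). In barcodes under 500 UMIs Per1 was also higher, 3.18 CPM in WT against 6.23 CPM in N-LKO, a ratio of 0.96 (0.21 to 1.75). The endothelial-like call was lost with at least 2000 UMIs per cell and with at most 10% mitochondrial UMIs, which left 362 WT and 53 N-LKO cells.

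Per2, the second period gene, was 9.20 CPM (154 UMIs) in WT against 5.40 CPM (25 UMIs) in N-LKO hepatocyte-like cells, a ratio of -0.74 (-1.44 to -0.15). It was 0.21 (-0.17 to 0.58) with the Malat1-rich N-LKO cluster counted in and -0.06 with classes assigned from marker UMIs per cell. Elsewhere its counts were at most 35 in any class and library. Its call in dendritic-like cells rested on 6 UMIs in WT against 1 in N-LKO (16.7 and 1.11 CPM, ratio -3.44, interval -9.43 to -0.87), and it was lost with at least 2000 UMIs per cell and with cells thinned to 1000 UMIs. WT cholangiocyte-like cells held 0 UMIs of Per2, which allows up to 11.8 CPM, against 11 UMIs (11.7 CPM) in N-LKO, a difference not detectable at this depth. Endothelial-like cells had 5.56 and 7.78 CPM, a ratio of 0.47 (-0.59 to 1.61). Per3, whose promoter carries the pair of D-boxes shown above, had 66 UMIs over the 9 WT classes and 73 over the N-LKO classes and reached 5 CPM in B-like and cholangiocyte-like cells alone. Its ratio in hepatocyte-like cells, from 40 and 7 UMIs, was -0.58 (-2.06 to 0.51), and no interval of Per3 left out 0 in any class.

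**Figure D2:**
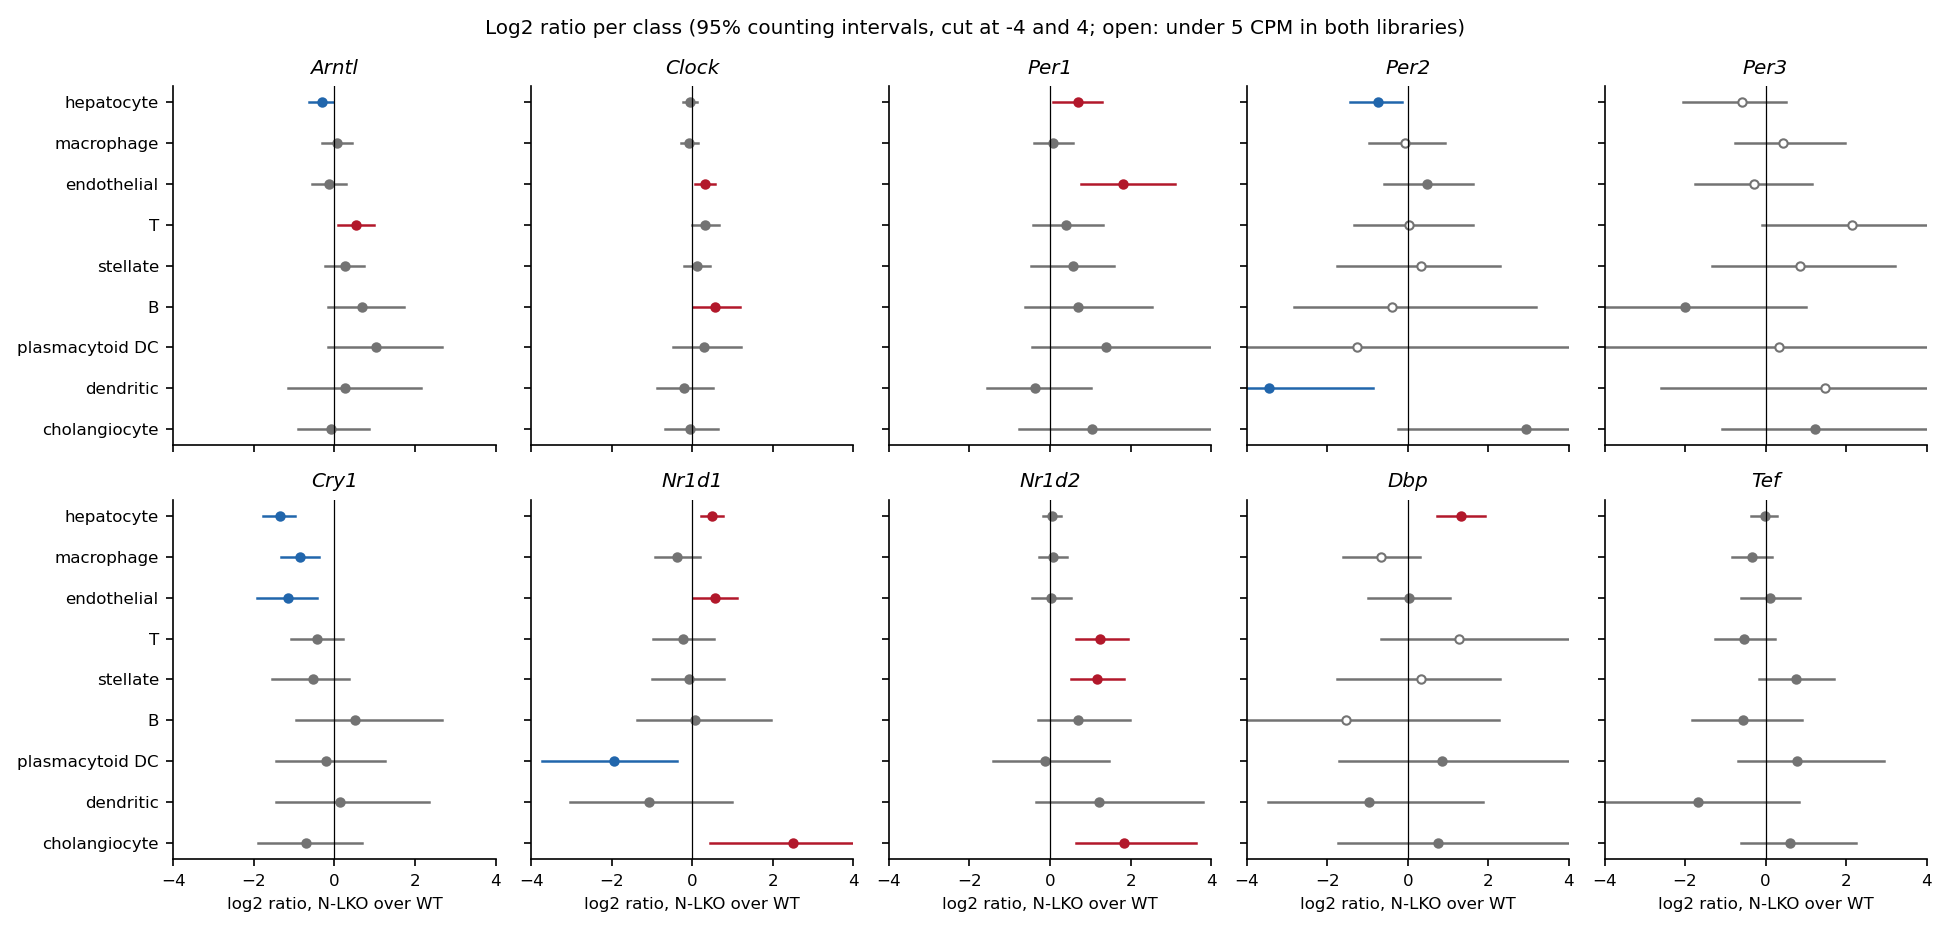
Log2 ratio of N-LKO over WT for each clock gene and class, with 95% counting intervals cut at -4 and 4 on a linear axis of log2 values. Red marks intervals above 0, blue marks intervals below 0, and open points are genes under 5 CPM in both libraries. Cry1 lies below 0 with intervals clear of 0 in hepatocyte-, macrophage- and endothelial-like cells, and no gene has intervals on 1 side of 0 in every class.

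The REV-ERB genes, whose products repress Arntl and Cry1, were both called higher in cholangiocyte-like cells and shared no other call. Nr1d1 (REV-ERBα) was 24.5 CPM (410 UMIs, 22.2 to 27.0) in WT against 34.6 CPM (160 UMIs, 29.4 to 40.4) in N-LKO hepatocyte-like cells, a ratio of 0.50 (0.23 to 0.76). That direction rested on the processing: the ratio was -0.11 (-1.10 to 0.76) with at most 10% mitochondrial UMIs, 0.24 (-0.03 to 0.51) when centred on genes of like genomic span, 0.02 with classes assigned from marker UMIs per cell, 0.19 with the Malat1-rich N-LKO cluster counted in and 3.03 with free RNA subtracted. Endothelial-like cells had 20.5 and 30.4 CPM, 0.56 (0.03 to 1.11). Macrophage-like cells lay the other way, with 12.6 and 9.73 CPM and a ratio of -0.38 (-0.92 to 0.19), and the difference of hepatocyte-like minus macrophage-like was 0.88 (0.29 to 1.48). T-like cells had 16.6 and 14.2 CPM, hepatic stellate-like cells 17.9 and 16.8, B-like cells 11.8 and 13.1, and dendritic-like cells 13.9 and 6.67, all with intervals that held 0.

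The calls of Nr1d1 came from small classes. In plasmacytoid dendritic-like cells 10 UMIs gave 31.7 CPM in WT, while 6 UMIs gave 7.96 CPM in N-LKO, a ratio of -1.95 (-3.73 to -0.39). Cholangiocyte-like cells went from 1 UMI (3.20 CPM) to 25 UMIs (26.7 CPM), a ratio of 2.51 (0.45 to 8.42). Both calls were lost with at least 2000 UMIs per cell and with at most 10% mitochondrial UMIs, and the plasmacytoid dendritic-like call also with span centring (-1.54, -3.33 to 0.02). The WT level of Nr1d1 in hepatocyte-like cells, 24.5 CPM, lay close to the 23.2 CPM expected from free RNA only there, and in barcodes under 500 UMIs Nr1d1 was 27.2 CPM in WT against 20.7 CPM in N-LKO, a ratio of -0.39 (-0.72 to -0.07), opposite to hepatocyte-like cells.

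Nr1d2 (REV-ERBβ) stayed level in the 3 classes with the most UMIs, with 46.8 CPM (784 UMIs) and 48.4 CPM (224 UMIs) in hepatocyte-like, 28.4 and 29.9 CPM in macrophage-like and 30.8 and 31.5 CPM in endothelial-like cells. The ratios there were 0.05 (-0.17 to 0.26), 0.07 (-0.27 to 0.42) and 0.03 (-0.44 to 0.51). It was higher in N-LKO in T-like cells, at 16.6 CPM (26 UMIs) in WT against 39.8 CPM (118 UMIs) in N-LKO, a ratio of 1.24 (0.64 to 1.93). Hepatic stellate-like cells had 20.3 CPM (34 UMIs) and 46.0 CPM (52 UMIs), a ratio of 1.17 (0.53 to 1.85), and cholangiocyte-like cells 16.0 CPM (5 UMIs) and 61.9 CPM (58 UMIs), a ratio of 1.83 (0.65 to 3.63). In each of these 3 classes the intervals of the levels did not overlap. Hepatocyte-like minus T-like cells differed by -1.19 (-1.84 to -0.54), minus hepatic stellate-like cells by -1.12 (-1.78 to -0.46) and minus cholangiocyte-like cells by -1.78 (-3.11 to -0.44). These 3 classes were picked because Nr1d2 was called there, so the intervals of these differences add no support. B-like cells (21.3 and 36.1 CPM), dendritic-like cells (8.36 and 22.2) and plasmacytoid dendritic-like cells (22.2 and 21.2) had intervals that held 0. In T-like cells the ratio was 0.31 with cells from 500 UMIs admitted and 0.94 with doublets kept, neither of them a call, and the call was also lost with cells thinned to 1000 UMIs (0.99). The hepatic stellate-like call was lost with doublets kept (0.89), with at most 10% mitochondrial UMIs (0.82) and with classes assigned from marker UMIs per cell (0.77, -2.50 to 6.85), and the cholangiocyte-like call with at least 2000 UMIs per cell (1.45, -0.20 to 4.85). The WT levels of Nr1d2 in T-like cells (16.6 CPM) and cholangiocyte-like cells (16.0 CPM) had intervals that held the level expected from free RNA only (16.6 and 13.9 CPM), and with free RNA subtracted the T-like ratio was 6.07.

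Of the PAR bZIP output factors, Dbp is among the most strongly cycling transcripts of liver. Its 61 UMIs in WT hepatocyte-like cells gave 3.64 CPM (2.79 to 4.68) and its 42 UMIs in N-LKO gave 9.07 CPM (6.54 to 12.3), with intervals apart and a ratio of 1.32 (0.71 to 1.91). Endothelial-like cells did not show it, at 7.28 and 7.39 CPM (a ratio of 0.02), nor did macrophage-like cells, at 4.88 and 3.09 CPM (-0.68, -1.60 to 0.31). Hepatocyte-like minus endothelial-like gave 1.30 (0.20 to 2.40) and minus dendritic-like 2.28 (0.05 to 4.52), and the interval for minus macrophage-like was 0.95 to 3.05. Against all remaining classes the interval of the difference held 0. Dbp was followed up because it was called in hepatocyte-like cells, so the intervals of these differences add no support. Outside hepatocyte-, endothelial- and macrophage-like cells, every class held at most 11 UMIs of Dbp in either library. The WT level in hepatocyte-like cells was below the 4.70 CPM expected from free RNA only. The call was lost with at most 10% mitochondrial UMIs, where the ratio was 0.42, with cells from 500 UMIs admitted (0.90), with the Malat1-rich N-LKO cluster counted in (0.83), and with classes assigned from marker UMIs per cell.

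Tef, which carries an E-box at both of its starts, was level in hepatocyte-like cells at 21.9 CPM (366 UMIs) and 21.4 CPM (99 UMIs), a ratio of -0.03 (-0.37 to 0.29), while the ratio was 0.63 (0.41 to 0.85) with the Malat1-rich N-LKO cluster counted in. In macrophage-like cells it was 15.8 and 12.5 CPM, in endothelial-like cells 13.3 and 14.4, in T-like cells 17.9 and 12.5, and in hepatic stellate-like cells 11.9 and 20.3 CPM. No class had an interval of Tef that left out 0, and the sign was above 0 in 4 classes and below 0 in 5. A fixed list of genes driven through E-boxes or D-boxes held 7 genes (Per1, Per2, Per3, Nr1d1, Nr1d2, Dbp and Tef). Cry1, which has E-box input too, was listed with Arntl and Clock, so the medians given here are without it. Its ratios were -1.36 in hepatocyte-like and -1.15 in endothelial-like cells, and the medians do not stand for all E-box targets. Of the 7, the 6 compared in hepatocyte-like cells had a median ratio of 0.28, with members from -0.74 to 1.32. The median over all genes compared there was 0.04. The median was -0.14 over 4 in macrophage-like cells, 0.29 over 6 in endothelial-like cells, 0.08 over 4 in T-like cells, 0.66 over 4 in hepatic stellate-like cells, 0.06 over 5 in B-like cells, 0.79 over 5 in plasmacytoid dendritic-like cells, -1.02 over 6 in dendritic-like cells and 1.23 over 7 in cholangiocyte-like cells. The median of all genes compared lay between -0.06 and 0.07 in all 9 classes.

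No clock gene met the rule for a shift shared by all classes, which asks for the same sign with an interval leaving out 0 in each of the 9. Of the 7 clock genes compared in every class, Arntl, Clock, Per1, Cry1, Nr1d1, Nr1d2 and Tef, none qualified in either direction, beside 0.690% of 8985 genes for a higher and 1.64% for a lower level. With shares this small, 0 of 7 says little about the clock genes. Few UMIs in the small classes also left little room to qualify, for example 2 of Per1 and 1 of Nr1d1 in WT cholangiocyte-like cells. Counted by their intervals, Cry1 was below 0 in 3 classes and above 0 in none, and Nr1d2 was above 0 in 3 classes and below 0 in none. Nr1d1 had intervals above 0 in 3 classes and below 0 in 1. Arntl had 1 on each side. With the rule applied to the 5 classes with the most UMIs alone, a choice made after the data were seen, 0 clock genes qualified beside 5.66% of all genes in both directions together.

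The genes that did meet the rule most strongly were of other kinds. Fgl1, an acute phase protein of hepatocytes, had ratios from 1.69 to 2.94 over the 9 classes, Zbtb16, a zinc finger factor induced by glucocorticoids, from 1.67 to 3.92, Mt2, a metallothionein, from 1.63 to 5.87, Fkbp5, another glucocorticoid-induced gene, from 1.61 to 3.09, and the predicted gene Gm43305 from 1.58 to 4.52. On the lower side stood the major urinary protein genes Mup1 (-6.54 to -3.98), Mup7 (-5.58 to -3.70) and Mup12 (-6.38 to -3.32), the organic anion transporter Slco1a1 (-4.36 to -3.43) and the sulfotransferase Sult2a8 (-4.17 to -3.28). In barcodes under 500 UMIs these genes moved the same way, by 2.58 for Fgl1, 2.79 for Zbtb16, 4.96 for Mt2, 2.58 for Fkbp5 and 3.83 for Gm43305, and by -4.57 for Mup1, -5.01 for Mup7, -4.57 for Mup12, -3.95 for Slco1a1 and -4.05 for Sult2a8. The share of all genes with a shared shift was 2.33% as counted and 0.0760% after subtraction of free RNA. Of the 10 clock genes, Per1 alone had an interval above 0 in those barcodes, and Cry1 and Nr1d1 had intervals below 0. How many of all genes had such intervals there was not computed, so no contrast with the clock genes is drawn.

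**Figure D3:**
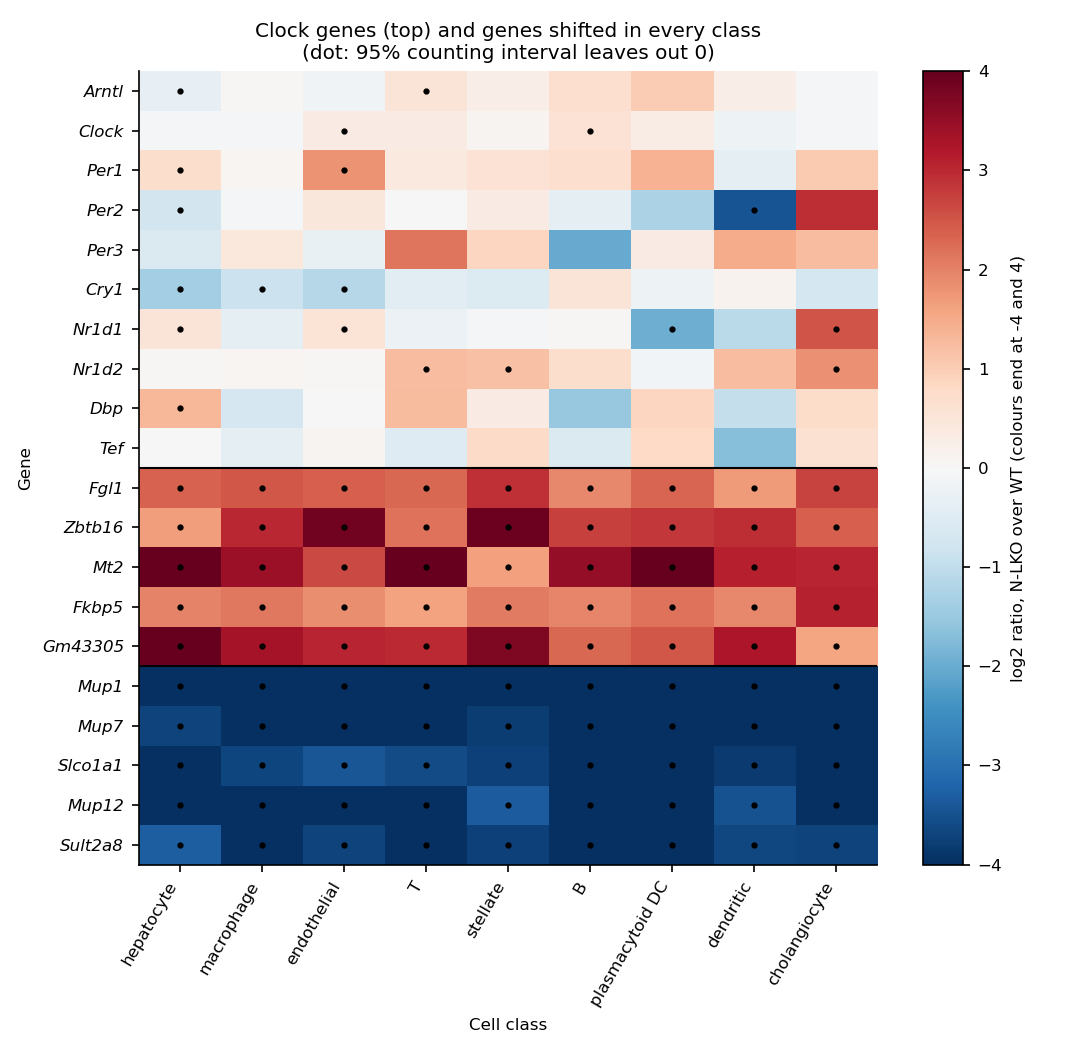
Map of log2 ratios (N-LKO over WT, colours end at -4 and 4) with genes as rows and 9 cell classes as columns, with a dot where the 95% counting interval leaves out 0. The 10 clock genes fill the top block with few dots and mixed signs, and the 5 higher and 5 lower genes chosen for a shift shared by all classes fill the blocks beneath with a dot in every class.

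Across classes within a library, neighbours in the order of levels were compared. Neighbours are the closest pairs by construction, so few can be expected to lie apart. The share over all genes was not computed, so the count is no result about the clock genes. Of 160 pairs of neighbouring classes in the orders of the 10 genes in both libraries, 6 had levels apart beyond counting error. In WT these were hepatic stellate-like above endothelial-like cells for Clock (0.29, 0.01 to 0.57) and hepatocyte-like above endothelial-like cells for Nr1d2 (0.59, 0.25 to 0.97). In N-LKO they were endothelial-like above macrophage-like cells for Arntl (0.58, 0.22 to 0.92), T-like above hepatocyte-like cells for Clock (0.26, 0.02 to 0.49), endothelial-like above hepatocyte-like cells for Per1 (0.93, 0.21 to 1.65) and macrophage-like above dendritic-like cells for Tef (1.69, 0.31 to 4.20). From the highest to the lowest class the log2 distance was larger, for example 1.69 (0.49 to 3.73) for Cry1 in WT, from hepatocyte-like to B-like cells, and 2.26 (1.22 to 3.84) for Nr1d1 in N-LKO, from hepatocyte-like to dendritic-like cells. Of the 180 member levels, 130 lay with their whole interval above the level expected from free RNA only and 50 did not. This share was not computed over all genes, so it does not set the clock genes apart.

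The hepatocyte-like cells of the libraries fell largely into different clusters. Cluster 1, led by major urinary protein genes, held 8146 of 9924 WT cells (82.1%) and 92 N-LKO cells, and cluster 7, led by A2ml1, Dnajc12 and Spink1, held 1986 of 2104 N-LKO cells (94.4%) and 121 WT cells. Within cluster 7 Cry1 was 21.4 CPM (5 UMIs) in WT against 12.9 CPM (57 UMIs) in N-LKO, a ratio of -0.86 (-2.04 to 0.95), and within cluster 1 it was 35.1 CPM (498 UMIs) and 18.2 CPM (3 UMIs), a ratio of -0.73 (-3.23 to 0.61). Dbp was 4.29 CPM (1 UMI) and 8.84 CPM (39 UMIs) in cluster 7, 0.48 (-1.52 to 6.38), and 2.96 CPM (42 UMIs) and 18.2 CPM (3 UMIs) in cluster 1, 2.83 (0.29 to 4.27). Both genes kept the sign they had in the class in both clusters, from few UMIs.

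A separate N-LKO cluster of 2470 cells, with 23 WT cells beside them, was high in Arntl. Its leading genes were Grip1, Pdzrn3 and Eda, and it held 3961 CPM of Alb and 19669 CPM of the nuclear RNA Malat1 against 16233 and 4561 CPM in N-LKO hepatocyte-like cells, so it was left without a name. The WT library had a Malat1-rich cluster of its own among the hepatocyte-like cells, with 322 cells, 7633 CPM of Alb and 35496 CPM of Malat1. Arntl was 117 CPM (561 UMIs) in the N-LKO cluster against 25.3 CPM in the hepatocyte-like cells of that library, a log2 ratio within the library of 2.20 (1.92 to 2.50), and 93.7 CPM (62 UMIs) in the WT cluster against 29.0 CPM, a ratio of 1.70 (1.29 to 2.08). The median over all genes was 0.74 in N-LKO and 0.58 in WT. The ratio of Arntl lay above that of 91.4% of all genes compared in N-LKO and 83.4% in WT.

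In the same comparison Clock was 163 against 72.8 CPM in N-LKO (1.16, 0.98 to 1.35) and 160 against 72.3 CPM in WT (1.15, 0.85 to 1.44). The ratio of Clock lay above that of 62.5% of all genes compared in N-LKO and 67.2% in WT. Npas2, which encodes a substitute for CLOCK, was 169 against 19.4 CPM in N-LKO (3.12, 2.81 to 3.45) and 68.0 against 16.3 CPM in WT (2.07, 1.57 to 2.52). Nr1d1 and Dbp did not share this height. Nr1d1 was 21.4 against 34.6 CPM in N-LKO (-0.69, -1.06 to -0.33) and 31.7 against 24.2 CPM in WT (0.42, -0.32 to 1.03), and Dbp was 3.95 against 9.07 CPM in N-LKO (-1.18, -2.07 to -0.39) and 6.05 against 3.54 CPM in WT (0.93, -1.15 to 2.21). Cry1 lay near the median of all genes in both, at 0.71 (0.24 to 1.19) and 0.55 (-0.04 to 1.04). Per2 was 15.6 against 5.40 CPM (1.51, 0.86 to 2.24) in N-LKO and 33.3 against 8.21 CPM (2.05, 1.30 to 2.68) in WT. Its ratio lay above that of 73.5% of all genes in N-LKO and 90.8% in WT. For Per3 these shares were 83.0% and 88.2%, for Tef 60.7% and 80.5%, for Per1 52.4% and 88.7%, and for Nr1d2 44.6% and 62.4%.

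**Figure D4:**
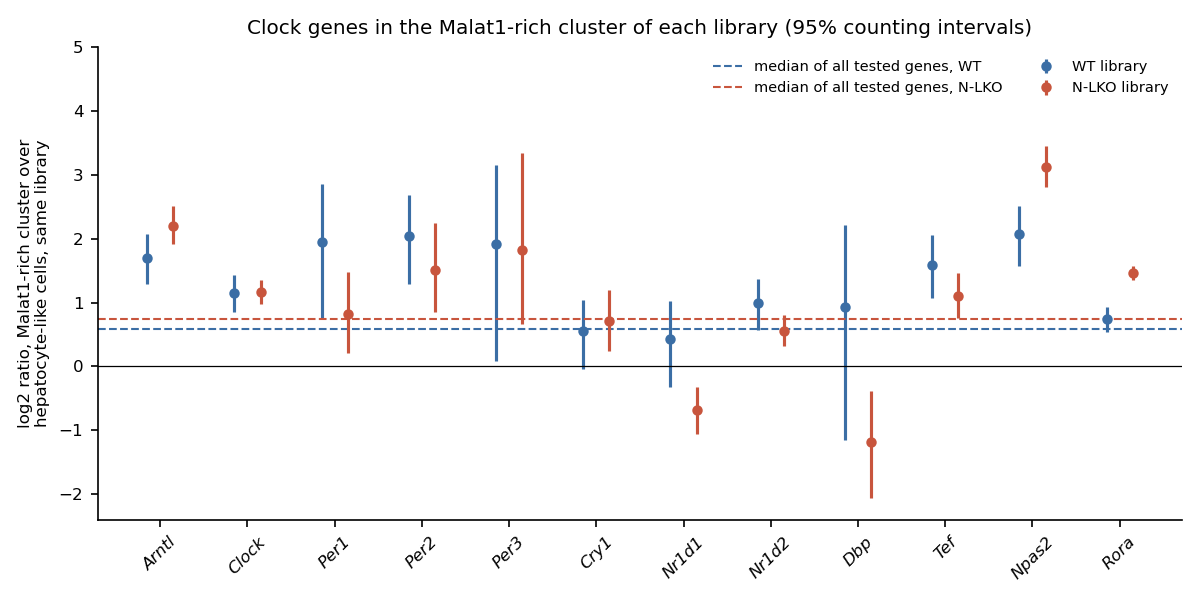
Log2 ratio of the Malat1-rich cluster of each library over the hepatocyte-like cells of the same library (in WT, over those outside the cluster) for the 10 clock genes, Npas2 and Rora, with 95% counting intervals and dashed lines at the median over all genes compared. Arntl and Npas2 lie above the median in both libraries, as do the points of Clock, Per1, Per2, Per3, Tef and Rora. Nr1d1 and Dbp lie below 0 in the N-LKO library alone.

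Among 18 further clock genes, from a list of activators, receptors, kinases and ligases, 15 were compared in hepatocyte-like cells and none was called higher. Npas2 was called higher in T-like cells, at 8.30 and 35.0 CPM (2.03, 1.24 to 3.03), B-like cells, at 11.8 and 34.4 CPM (1.42, 0.21 to 3.24), and plasmacytoid dendritic-like cells, and it was 18.4 and 19.4 CPM in hepatocyte-like cells (0.09, -0.27 to 0.42). In barcodes under 500 UMIs Npas2 was 8.21 and 16.1 CPM (0.97, 0.51 to 1.44). Hlf, the PAR bZIP partner of Dbp and Tef, lay opposite to Dbp in hepatocyte-like cells, at 66.7 and 42.3 CPM (-0.65, -0.88 to -0.44), and had intervals below 0 in 5 classes. In barcodes under 500 UMIs Hlf differed by -1.16 (-1.46 to -0.88). Nfil3, which represses D-box sites, was called lower in endothelial-like cells (23.1 and 8.95 CPM, -1.35) and T-like cells (24.3 and 10.4 CPM, -1.21). Rora differed by -0.31 (-0.42 to -0.20) in hepatocyte-like and 0.52 (0.30 to 0.74) in T-like cells.

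Of 18 genes listed as clock-controlled liver outputs, 17 were compared in hepatocyte-like cells, where Alas1, Usp2, Lpin1 and Cdkn1a were called higher and Elovl3 and Upp2 lower, beside 5.44% and 3.25% of all genes in that class. Usp2, a ubiquitin protease whose transcript follows that of Dbp in many tissues, was 1.55 CPM (26 UMIs) in WT against 11.9 CPM (55 UMIs) in N-LKO (2.92, 2.24 to 3.67), and it was also called higher in macrophage-like (1.05), endothelial-like (1.53) and T-like cells (1.76). Lpin1, a phosphatidate phosphatase, went from 75.1 to 195 CPM (1.38, 1.25 to 1.50). Alas1, the first enzyme of heme synthesis, stood at 52.5 and 116 CPM (1.14, 0.98 to 1.30). Elovl3, a fatty acid elongase, was 214 and 43.0 CPM (-2.31, -2.53 to -2.11) and was called lower in all 9 classes, and the deadenylase gene Noct was called higher in 7 classes and had intervals above 0 in 9. In barcodes under 500 UMIs Elovl3 differed by -2.32, Noct by 1.46, Usp2 by 1.44 (0.67 to 2.28) and Lpin1 by 1.54 (1.34 to 1.73), and the part of this in the cell classes was not tested. The list's median was 0.02 in hepatocyte-like cells, beside 0.04 over all genes.

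Signals that can reset the clock were read from further lists, whose calls in hepatocyte-like cells stand beside the same 5.44% of all genes called higher and 3.25% called lower. Of 9 glucocorticoid-responsive genes, Fkbp5 (18.7 and 73.7 CPM in hepatocyte-like cells, 1.98, 1.75 to 2.20) and Zbtb16 were called higher in all 9 classes. Tat, a tyrosine aminotransferase, was called lower in all 9 classes. In barcodes under 500 UMIs Tat differed by -1.74 (-1.83 to -1.64), and the part of this in the cell classes was not tested. The shares of all genes called in the other classes are given above. The list's median in hepatocyte-like cells was -0.09. Of 8 immediate early genes, Fos (42.5 and 88.6 CPM), Fosb, Ier3 and Atf3 were called higher in hepatocyte-like cells, with a list median of 1.01. Fos and Jun were called lower in hepatic stellate-like cells (6.15% of all genes). Over the 9 classes Fosb was called higher in 6 and Atf3 in 5. The list median was 1.21 in plasmacytoid dendritic-like, 0.75 in B-like and 0.70 in T-like cells. In the remaining classes it ran from -0.66 (hepatic stellate-like) to 0.41 (endothelial-like). Of 9 temperature-responsive genes, 8 were compared in hepatocyte-like cells and Hsp90aa1 was called higher (198 and 403 CPM, 1.03), and Cirbp, a cold-induced RNA-binding protein, was below 0 in all 9 classes with intervals below 0 in 4. Of 8 genes that follow fasting and feeding in hepatocytes, Angptl4 was called higher (16.3 and 53.6 CPM, 1.72), and G6pc (733 and 325 CPM, -1.18), Srebf1 (171 and 49.0 CPM, -1.80) and Pnpla3 (-2.01) were called lower, with a list median of -0.02.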

How the data were processed

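Per the labels and file headers, the authors aligned and counted 10x 3′ v3 reads with Cell Ranger 7.1.0, and the deposited matrices hold UMI counts as whole numbers, not normalized. The submitters' processing notes name mm9 and Seurat, without roles. The matrices hold no coordinates, so gene positions are from GENCODE vM21 on GRCm38 (32235 of 32285 gene IDs matched), which may not be the build of the counting. The 10 genes, the lists and the tests were chosen with earlier results of these data known. Barcodes with at least 1000 UMIs, at least 400 genes and at most 30% mitochondrial UMIs were kept, since the authors' cell thresholds are not given in the sources used here. Doublets were scored per library with Scrublet in scanpy 1.11.5, and 1728 WT and 2360 N-LKO barcodes scoring at least 0.25 were removed. Cells were clustered with the Leiden method (resolution 0.3) on 30 principal components of 2000 variable genes that left out all listed clock genes. Clusters were named from fixed marker lists, with score limits set after the data were seen (including a limit of 0.65 on the next type's score relative to the best). These limits kept 18.8% of N-LKO and 3.19% of WT cells unnamed and 3.35% and 1.63% as mixed. A cluster led by dendritic markers also held myeloid granule genes (Prtn3, Elane).

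UMIs were summed per class and library. With 1 library per group no test across samples was possible. Intervals for levels are exact Poisson, intervals for ratios are exact conditional binomial, and intervals for differences between classes are log-scale normal approximations, all for counting error alone. The interval code was tested on simulated counts. Free RNA was profiled from barcodes under 500 UMIs, and its share per class was the median over genes of other cell types. Named genes were the 10 clock genes, the genes of 6 further lists, and the 5 genes in each direction with the largest smallest ratio among those shifted in all 9 classes at 20 CPM or more. The listed Malat1-rich clusters and their leading genes were singled out after their values were seen. The result of 1 listed gene is not reported here. A set of 12 planned and 2 added alternatives was run.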

Additional observations from a re-analysis of the deposited data

Results flagged for a closer look

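Clock genes with intervals on opposite sides of 0 in hepatocyte-like cells and in another class were singled out. Arntl was lower in N-LKO in hepatocyte-like cells (-0.31) and higher in T-like cells (0.53), a difference of -0.84 (95% counting interval -1.36 to -0.32). Nr1d1 was higher in hepatocyte-like cells (0.50) and lower in plasmacytoid dendritic-like cells (-1.95, from 10 and 6 UMIs), a difference of 2.45 (0.96 to 3.93). Since the genes were chosen for intervals on opposite sides of 0, the intervals of these differences add no support, and with 1 library per group neither difference was tested across mice. The hepatocyte-like directions rested on the processing: Arntl was 0.24 with cells from 500 UMIs admitted and 1.18 with the Malat1-rich N-LKO cluster counted in, and Nr1d1 was -0.11 with at most 10% mitochondrial UMIs.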

How the results depend on the processing

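No paired analysis was possible because each group has 1 library, so that the replicate number shared by the labels pairs nothing and no library can be left out. No clock gene had a shift shared by all classes under any of the 12 planned and 2 added alternatives, while the share of all genes with such a shift ranged from 0.0760% to 5.54% over the 12 that kept all 9 classes. The 6 calls of higher level were 3 with at least 2000 UMIs per cell, 10 with free RNA subtracted and 1 with classes assigned from marker UMIs per cell, and the 4 calls of lower level were 0 with marker UMIs, a setting under which 6 classes had too few UMIs (under 20000) for a value. The hepatocyte-like median of 0.28 over the listed E-box and D-box driven genes, Cry1 not among them, was -0.088 with at most 10% mitochondrial UMIs. It was -0.037 with free RNA subtracted. The cause of these moves was not tested, except that the marker setting left 3 classes. Of 1110 values of a gene in a class under an alternative, 1027 stayed within the counting interval, 83 lay outside it and 0 called values changed sign. Part of this count was fixed in advance. Dropping the filter on low values changed no ratio, and the settings on Malat1-rich or Malat1-poor clusters changed hepatocyte-like cells only. Sign changes were counted for called values alone, so those of Arntl, Clock and Per2 in hepatocyte-like cells are not among them. Cry1 in hepatocyte-like cells was a call under 11 of 13 alternatives and ranged from -2.21 to -0.87, and Dbp was a call under 9 of 13. Depth limits Per2, Per3 and Dbp outside hepatocyte-like cells and every gene in the smallest classes, where 1 UMI was worth up to 3.20 CPM.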
